A study of Mus musculus with 6 samples.

Results

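Ribosome biogenesis factors are the proteins that transcribe, modify, cut and assemble ribosomal RNA in the nucleolus, and 40 of their genes were described here in CD4-CD8- double-negative (DN) thymocytes. These are early T cell precursors, which do not yet show CD4 or CD8 on their surface. They were taken by gene name from the 41457 genes in the deposited tables, and all 40 were present and passed the filter on low counts, as did 12224 genes in all. Messenger RNA was sequenced in 6 libraries, 3 from BirA mice and 3 from Nc1Bio mice. The paper describes the DN thymocytes of both groups as freshly isolated. BirA mice, labelled WT for genotype, express the bacterial biotin ligase BirA and served as the control. Nc1Bio mice carry BirA as well, and an extra copy of *Nfatc1*, the gene of the transcription factor NFATc1, on a bacterial artificial chromosome with a biotin tag on the NFATc1/A protein. Both groups were on a C57/B6 background, 4 to 6 weeks old and matched for sex and age. The DN cells had been enriched on magnetic beads by depleting CD4- and CD8-positive cells, so other CD4-CD8- cells of the thymus could remain. It is not stated whether each library of a group is from its own mouse, so a p-value here reflects only library-to-library spread, which may be technical.

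In the nucleolus, RNA polymerase I transcribes the ribosomal DNA into a long precursor RNA. Small nucleolar ribonucleoproteins (snoRNPs) guide its methylation (box C/D type) and pseudouridylation (H/ACA type), the small subunit processome folds and cuts the 18S part, and a separate set of factors builds the large subunit around the rest. Dividing cells need many ribosomes, and DN thymocytes pass through a burst of division once the pre-T cell receptor signals. The transcription factor MYC is known for driving many of these genes, often through the E-box CACGTG. The comparison of Nc1Bio with BirA asks whether the transcripts of these factors differed where more *Nfatc1* RNA was present.

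More *Nfatc1* RNA was counted in Nc1Bio, though the counts do not separate the extra copy from the mouse's own gene. *Nfatc1* was at 152.4, 128.4 and 96.8 CPM in BirA replicates 1, 2 and 3, and at 572.6, 597 and 550.6 CPM in Nc1Bio replicates 1, 2 and 3, and edgeR's quasi-likelihood test gave it an adjusted p of 0.0141, by Benjamini-Hochberg over all tested genes. In edgeR the adjusted p passed 0.05 when 1 library was left out, to 0.141 for BirA replicate 2 and to 0.0689, 0.101 and 0.0618 for Nc1Bio replicates 1, 2 and 3. The groups were far apart in every library. CPM are a gene's unique reads relative to the TMM-scaled total of such reads in the library, so they compare 1 gene between libraries. The libraries held 11845952 to 15393763 unique gene reads. The 5 haemoglobin and haem synthesis genes listed as erythroid markers took 1.82% to 9.02% of the reads, most in Nc1Bio replicate 3 and next in BirA replicate 1, and the 5 myeloid markers summed to between 326.4 and 5790.5 CPM with BirA replicate 2 highest. DN and T lineage markers were present in every library, at summed levels of 3436.8 to 4722.7 CPM. *Cd4*, *Cd8a* and *Cd8b1*, the markers of later thymocytes, summed to 21.1 to 52.6 CPM. Of the markers listed for thymic epithelium, *Foxn1* was at 0 in all libraries but BirA replicate 2, where it was at 0.128 CPM. *Krt8* was at no more than 1.16 CPM in any library. *Epcam* was present in every library, at 37.3, 28 and 26.2 CPM in BirA and 36.5, 44.8 and 19.9 CPM in Nc1Bio.

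Of the 40 factors, 39 had a log2 fold change above 0, where 49.6% of all tested genes did, and *Tsr1* was the exception at -0.083. The differences were small. Their median was 0.205 on the log2 scale, with a range of -0.083 to 0.402, beside a median of -0.003 over all tested genes. None of the 40 passed the edgeR test at an adjusted p under 0.05. The lowest adjusted p was 0.263, for *Noc4l*. Among all tested genes 1 was called higher (0.00818%), which was *Nfatc1*, and 0 lower (0%). At an unadjusted p under 0.05, 5 of the 40 factors were higher, against 4.31% of all tested genes, and 0 were lower, against 7.66%. DESeq2 called 0 of the 40, where it called 0.45% of all genes higher and 2.23% lower. At an unadjusted p under 0.05 it placed 7 of them higher, against 4.35%, and 0 lower, against 8.13%. limma-voom also called 0, with 0.00818% of all genes called higher and 0% lower, and placed 5 higher at an unadjusted p under 0.05, against 4.52%, and 0 lower, against 6.95%. Both tools also put 39 of the 40 above 0, where they put 49.5% (DESeq2) and 49.9% (limma-voom) of all tested genes. The 40 values come from the same 6 libraries and are not independent measurements.

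**Figure D1:**
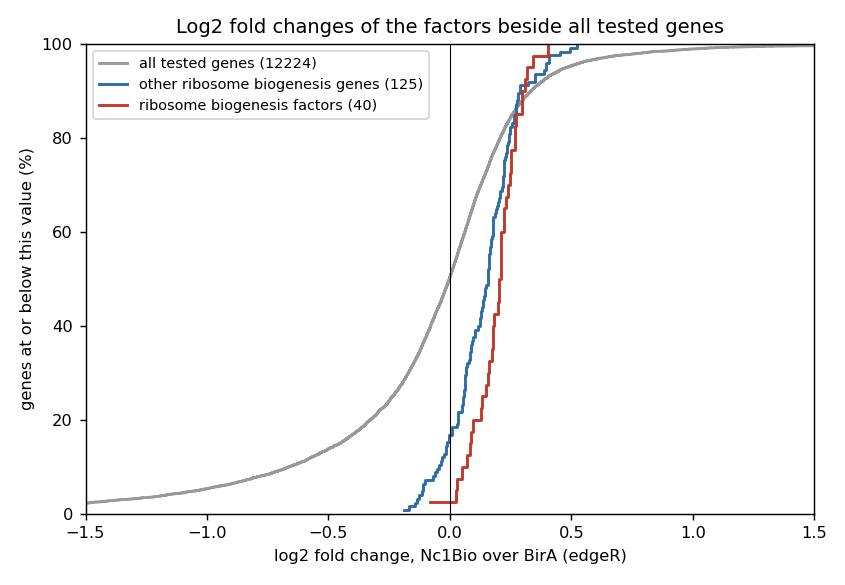
Cumulative share of genes in percent (vertical axis) at or below each log2 fold change of Nc1Bio over BirA in the edgeR fit (horizontal axis), for the 40 ribosome biogenesis factors (red), 125 other ribosome biogenesis genes (blue) and all 12224 tested genes (grey). The red curve lies between -0.083 and 0.402 with its median at 0.205, while the grey curve is centred at -0.003 and extends beyond the axis on both sides.

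For 12 factors every Nc1Bio library lay above every BirA library, which held for 8.45% of all tested genes, and for 0 factors every Nc1Bio library lay below, against 9.98%. These 12 were *Noc4l*, *Wdr12*, *Nhp2*, *Pes1*, *Npm1*, *Gnl3*, *Nat10*, *Nop10*, *Mybbp1a*, *Wdr43*, *Noc2l* and *Ddx21*. For *Ddx21* the gap was narrow, from 317.6 in BirA replicate 3 to 317.7 in Nc1Bio replicate 2. The count moved with the scaling: with library totals in place of TMM scaling 3 factors were without overlap, against 4.88% of all tested genes. Leaving out BirA replicate 3 gave 27, against 17.5%. Leaving out BirA replicate 1 or 2 gave 12 each, against 11.8% and 12.4%. Leaving out Nc1Bio replicate 1, 2 or 3 gave 16, 13 and 18, against 13.4%, 12.1% and 14.4%. Groups of 2 and 3 libraries separate more often, and the share of all tested genes was above 8.45% in each of these fits. TMM scaling raised the CPM of Nc1Bio replicate 3, whose scaling factor was 0.926, relative to the 5 other libraries at 0.97 to 1.05.

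The 40 factors were not evenly placed over the BirA libraries. BirA replicate 1 held the lowest value of 35 of the 40, where 24.3% of all tested genes were lowest in that library. The summed CPM of the factors was 6757, 7646 and 8282 in BirA and 8676, 8716 and 8471 in Nc1Bio. Centred on each gene's mean over the 6 libraries, the median factor stood at -0.31, -0.06 and 0.07 in BirA and at 0.13, 0.11 and 0.05 in Nc1Bio on the log2 scale. BirA replicate 3 was below all 3 Nc1Bio libraries in the summed CPM, but above Nc1Bio replicate 3 in the centred median. BirA replicate 1 was the lowest library on both measures. The highest value of a factor fell in a Nc1Bio library for 35 of the 40 (18 in replicate 1, 8 in replicate 2 and 9 in replicate 3), where 47.5% of all tested genes were highest in a Nc1Bio library, and in BirA replicate 3 for the 5 remaining factors, *Rrs1*, *Nop16*, *Tsr1*, *Ddx18* and *Rrp12*. Without BirA replicate 1 the median log2 fold change of the 40 was 0.104 and 34 lay above 0, and without BirA replicate 3 it was 0.279 and all 40 lay above 0 (49.3% and 50.3% of all tested genes lay above 0 in these fits). The differences of single factors moved likewise: without BirA replicate 1, 29 of the 40 were more than 1.5 times smaller or changed sign, and without BirA replicate 3, 18 were more than 1.5 times larger. The median coefficient of variation of the factors was 13.9% over the 3 BirA libraries, 5.74% over BirA replicates 2 and 3, and 7.59% over the 3 Nc1Bio libraries, against 14.6%, 11.3% and 13.7% as the median over all tested genes.

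**Figure D2:**
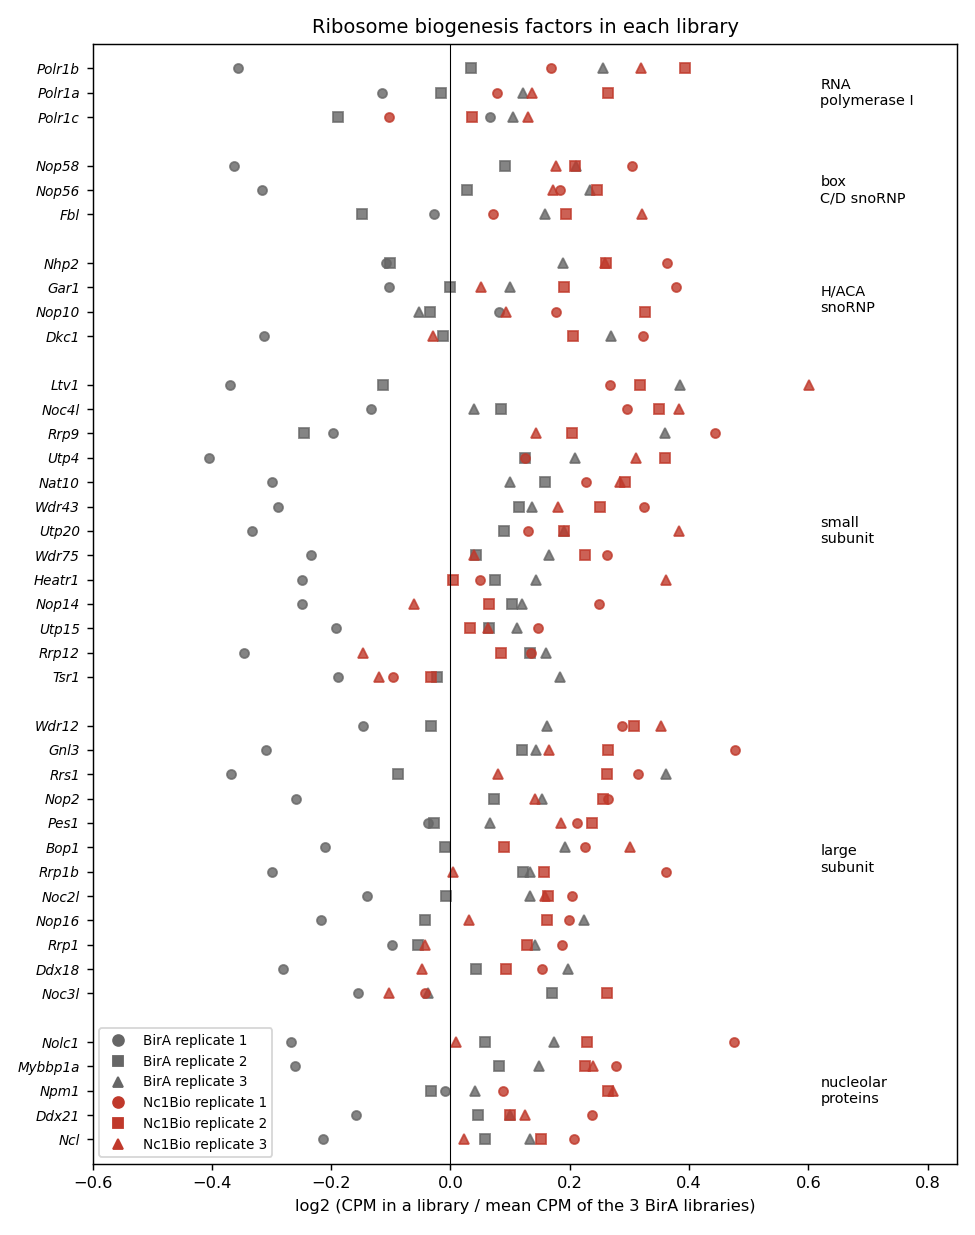
Level of each of the 40 factors in each library, as log2 of its CPM over the mean CPM of the 3 BirA libraries (horizontal axis), with 1 line per gene grouped by role (vertical axis). Grey marks are BirA and red marks Nc1Bio, and circles, squares and triangles are replicates 1, 2 and 3. BirA replicate 1 (grey circles) was the lowest mark for 35 of the 40 genes.

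Other transcripts also varied between the libraries. The 7 genes of cycling cells (*Mki67*, *Top2a*, *Ccnb1*, *Cdk1*, *Pcna*, *Mcm2* and *Mcm5*) summed to 2781.8, 3211.1 and 3428.4 CPM in BirA and 3714.3, 3609.8 and 3987 CPM in Nc1Bio, lowest in BirA replicate 1 as the factors were. Within Nc1Bio the order differed, since replicate 3 was the highest in the cycling genes and the lowest in the factors (summed CPM and centred median). All 7 had a log2 fold change above 0, between 0.21 and 0.34, and edgeR called 0 of them (lowest adjusted p 0.302), with 2 higher at an unadjusted p under 0.05, beside 4.31% of all tested genes. DESeq2 called 1, *Mcm5* (adjusted p = 0.0432), and limma-voom 0. The 5 B cell markers, among them *Cd79a* and *Pax5*, summed to 308.4, 116.8 and 109.4 CPM in BirA and to 76.9, 50.4 and 63.2 CPM in Nc1Bio, so BirA replicate 1 was high in them and low in the factors. For all 5 every Nc1Bio library lay below every BirA library, beside 9.98% of all tested genes. The 4 γδ markers (*Trdc*, *Sox13*, *Blk* and *Maf*) summed to 332.6, 611.7 and 646 CPM in BirA and to 137.8, 194.7 and 292.4 CPM in Nc1Bio. edgeR called 0 of the B cell and γδ markers, with 4 of the 5 and 4 of the 4 lower at an unadjusted p under 0.05, beside 7.66% of all tested genes, and DESeq2 called 2 of each lower, beside 2.23%. The 7 DN and T lineage markers summed to 3436.8, 3543.3 and 3998.5 CPM in BirA and to 4722.7, 4204.8 and 3897.8 CPM in Nc1Bio. All 7 had a log2 fold change above 0, beside 49.6% of all tested genes, with a median of 0.49. edgeR called 0 of these 7, with 3 higher at an unadjusted p under 0.05, beside 4.31%. DESeq2 called 2 higher, *Ptcra* (adjusted p = 0.00905) and *Notch3* (adjusted p = 0.0285), beside 0.45%. The erythroid genes took 6.4%, 3.12% and 2.1% of the reads in BirA and 4.13%, 1.82% and 9.02% in Nc1Bio. The part of these marker groups in the values of the factors was not tested. In bulk RNA, a different share of cells of one kind and a different amount of RNA per cell cannot be told apart.

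**Figure D3:**
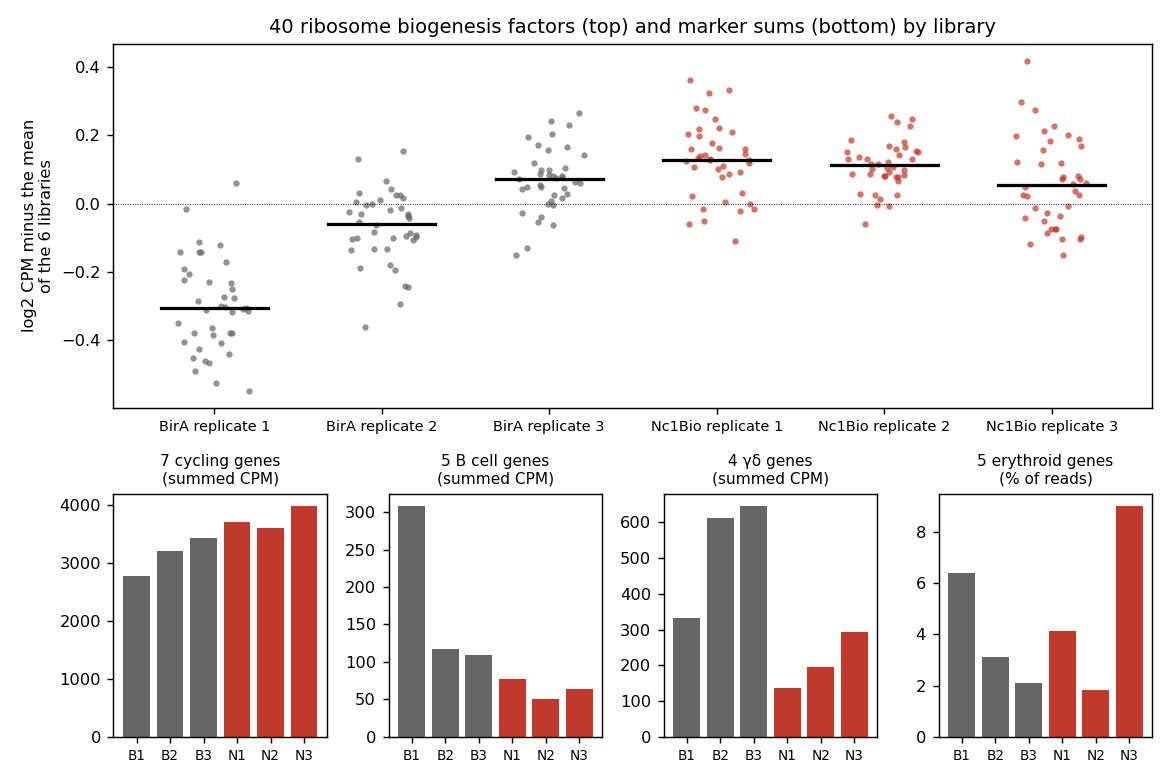
Top, log2 CPM of each of the 40 factors minus its mean over the 6 libraries (vertical axis), as points with the median as a bar, for each library (horizontal axis). Bottom, summed CPM of cycling, B cell and γδ genes and the percent of reads from erythroid genes in BirA replicates 1 to 3 (B1 to B3, grey) and Nc1Bio replicates 1 to 3 (N1 to N3, red). BirA replicate 1 was lowest in the factors (median -0.31) and in the cycling genes (2781.8 CPM) and highest in the B cell genes (308.4 CPM).

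Of RNA polymerase I, the listed subunits were *Polr1a* and *Polr1b*, which form the catalytic core, and *Polr1c*, which is shared with RNA polymerase III. *Polr1a* (ENSMUSG00000049553, chromosome 6, 71909053 to 71984935, GRCm38) was at 92.8, 99.4 and 109.3 CPM in BirA and 106.1, 120.7 and 110.5 CPM in Nc1Bio. Its log2 fold change was 0.16 (SE 0.10, adjusted p = 0.555 by edgeR). The groups overlapped, since BirA replicate 3 exceeded Nc1Bio replicate 1. *Polr1b* was at 89.2 ± 18.5 CPM in BirA and 109.6 ± 8.63 CPM in Nc1Bio (SD, n = 3 each), and *Polr1c* was nearly level at 80.7 ± 8.64 and 82 ± 6.61 CPM (SD, n = 3 each). An antisense gene overlaps *Polr1a*, and without a stated use of strand the reads of such partners cannot be told apart.

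The box C/D proteins were fibrillarin (*Fbl*), the methyltransferase of the particle, and *Nop56* and *Nop58*, its paired core proteins. *Fbl* (ENSMUSG00000046865, chromosome 7, 28169710 to 28179269) was at 69.2, 63.6 and 78.7 CPM in BirA and 74.1, 80.6 and 88.1 CPM in Nc1Bio, with a log2 fold change of 0.20 (SE 0.11, adjusted p = 0.527 by edgeR). Nc1Bio replicate 1 lay below BirA replicate 3. Only 19.1% of the *Fbl* reads (6180 of 32440) were unique to the gene, so its level is uncertain. In total gene reads its log2 fold change was 0.16. *Nop56* and *Nop58* had log2 fold changes of 0.20 (SE 0.14) and 0.23 (SE 0.15), and both had BirA replicate 1 far below the other BirA libraries, at 173 against 219.7 and 253.4 CPM for *Nop56* and at 184.4 against 252.6 and 274.2 CPM for *Nop58*. Without that library the log2 fold changes were 0.065 for *Nop56* and 0.079 for *Nop58*.

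The H/ACA proteins were dyskerin (*Dkc1*), the pseudouridine synthase that also binds telomerase RNA, and its partners *Gar1*, *Nhp2* and *Nop10*. *Dkc1* (ENSMUSG00000031403, chromosome X, 75095854 to 75109777) was at 145.5, 179.2 and 217.9 CPM in BirA and 226.2, 208.5 and 177.2 CPM in Nc1Bio, a log2 fold change of 0.17 (SE 0.16, adjusted p = 0.699 by edgeR). Its groups overlapped widely, with Nc1Bio replicate 3 below BirA replicates 2 and 3, and its log2 fold change was 0.038 without BirA replicate 1 and 0.332 without BirA replicate 3. *Nhp2* (ENSMUSG00000001056, chromosome 11, 51619735 to 51623714) was at 156.1, 156.9 and 191.8 CPM in BirA and 216.4, 201.6 and 201.5 CPM in Nc1Bio. Its log2 fold change was 0.295 (SE 0.11), the unadjusted p 0.0263 and the adjusted p 0.369 by edgeR. Every Nc1Bio library exceeded every BirA library, though an opposite-strand gene, *Rmnd5b*, overlaps it. *Nop10* (ENSMUSG00000027133, chromosome 2, 112261926 to 112263269) was at 173.9, 160.5 and 158.4 CPM in BirA and 185.7, 206 and 175.2 CPM in Nc1Bio, with a log2 fold change of 0.20 (SE 0.10, adjusted p = 0.455 by edgeR). Here BirA replicate 1 was the highest of its group, and the gap between the groups was narrow, from 173.9 to 175.2 CPM. *Gar1* stood at 89.9 ± 6.28 CPM in BirA and 104.2 ± 12 CPM in Nc1Bio (SD, n = 3 each), with overlap.

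The 13 small subunit factors held both the largest difference of the 40, *Ltv1*, and the 1 difference below 0, *Tsr1*, and their median log2 fold change was 0.238. *Heatr1* (ENSMUSG00000050244, chromosome 13, 12395027 to 12440289), a scaffold of the t-UTP complex that also acts in ribosomal DNA transcription, was at 151.7, 189.8 and 199 CPM in BirA and 186.5, 180.8 and 231.5 CPM in Nc1Bio (log2 fold change 0.15, SE 0.14, adjusted p = 0.709 by edgeR). Nc1Bio replicates 1 and 2 lay within the BirA range. *Noc4l* (ENSMUSG00000033294, chromosome 5, 110648418 to 110653417), the partner of *Nop14* in small subunit export, had the lowest p of the 40. It was at 60.1, 69.9 and 67.7 CPM in BirA, from at least 832 reads per library, and at 80.9, 84 and 85.9 CPM in Nc1Bio. The log2 fold change was 0.34 (SE 0.095), a 1.27-fold difference, with an unadjusted p of 0.00706 and an adjusted p of 0.263 by edgeR. Over the alternatives its adjusted p ran from 0.135 with DESeq2 to 0.608 with edgeR without Nc1Bio replicate 2. The gap between the groups, from 69.9 to 80.9 CPM, was wider than the range within either, and no protein-coding gene overlaps it. *Nop14* itself was at 46.1 ± 6.33 and 49.1 ± 5.36 CPM (SD, n = 3 each).

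*Nat10* (ENSMUSG00000027185, chromosome 2, 103721256 to 103761270), the cytidine acetyltransferase of 18S rRNA, was at 71.8, 98.5 and 94.6 CPM in BirA and 103.4, 108.2 and 107.5 CPM in Nc1Bio, with a log2 fold change of 0.27 (SE 0.13, adjusted p = 0.455 by edgeR). The groups did not overlap, and BirA replicate 1 lay far below its group. Without BirA replicate 1 the value for *Nat10* was 0.138. *Ltv1* (ENSMUSG00000019814, chromosome 10, 13178140 to 13193168), a late assembly and export factor of the small subunit, had the largest difference of the 40 with all libraries in the fit. It was at 38, 45.4 and 64.1 CPM in BirA and 59.1, 61.2 and 74.5 CPM in Nc1Bio, a log2 fold change of 0.40 (SE 0.20, adjusted p = 0.462 by edgeR). BirA replicate 3 exceeded Nc1Bio replicates 1 and 2, so the groups overlapped. Its difference depended on both ends of the BirA range, at 0.247 without BirA replicate 1, where *Noc4l* (0.279) was the largest, and at 0.642 without BirA replicate 3. The UTP proteins *Utp4*, *Utp15* and *Utp20* had log2 fold changes of 0.27, 0.08 and 0.24, the WD-repeat processome proteins *Wdr43* and *Wdr75* 0.25 and 0.18, and the U3 snoRNP protein *Rrp9* 0.27. *Rrp12*, an export factor, was at 0.03. *Tsr1*, a late small subunit factor related to translational GTPases, was at 58, 65.1 and 75.1 CPM in BirA and 61.8, 64.6 and 60.8 CPM in Nc1Bio (log2 fold change -0.08, SE 0.12, adjusted p = 0.807 by edgeR), all 3 Nc1Bio libraries lying inside the BirA range. Only 67.7% of the *Tsr1* reads were unique.

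The 12 large subunit factors all had a log2 fold change above 0, with a median of 0.195. *Pes1*, *Bop1* and *Wdr12* form the PeBoW complex, which is needed for processing of the large subunit rRNAs. *Pes1* (ENSMUSG00000020430, chromosome 11, 3963975 to 3980004) was at 116.8, 117.6 and 125.5 CPM in BirA and 138.9, 141.3 and 136.3 CPM in Nc1Bio. The log2 fold change of *Pes1* was 0.21 (SE 0.08), with an unadjusted p of 0.0341 and an adjusted p of 0.388 by edgeR. The groups were separated and tight, although 73.9% of its reads were unique and an opposite-strand gene overlaps it, and in total gene reads the log2 fold change was 0.19. *Wdr12* (ENSMUSG00000026019, chromosome 1, 60069785 to 60098645) was at 72.8, 78.8 and 90.2 CPM in BirA and 98.4, 99.8 and 103 CPM in Nc1Bio, with a log2 fold change of 0.32 (SE 0.10), an unadjusted p of 0.0151 and an adjusted p of 0.324 by edgeR. Its groups did not overlap either, and an opposite-strand gene, *Carf*, overlaps *Wdr12*. *Bop1* was at 142.2 ± 19.8 CPM in BirA and 164.2 ± 12 CPM in Nc1Bio (SD, n = 3 each), and BirA replicate 3 (162.4 CPM) exceeded Nc1Bio replicate 2 (151.4 CPM), so the third subunit overlapped between groups.

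*Gnl3* (ENSMUSG00000042354, chromosome 14, 31012433 to 31019152) encodes nucleostemin, a nucleolar GTPase of proliferating and stem cells. It was at 65, 87.5 and 88.9 CPM in BirA and 112.1, 96.7 and 90.3 CPM in Nc1Bio, a log2 fold change of 0.31 (SE 0.15, adjusted p = 0.449 by edgeR). The groups were separated by the narrow gap between 88.9 and 90.3 CPM, and an opposite-strand gene, *Pbrm1*, overlaps *Gnl3*. *Nop2*, the 28S rRNA methyltransferase, had 0.22, and *Nop16*, *Rrp1*, *Rrp1b* and *Rrs1* had 0.13, 0.09, 0.18 and 0.22. *Noc2l* and *Noc3l*, nucleolar complex proteins of the pre-60S particle, had 0.175 and 0.05, and the helicase *Ddx18* had 0.07. Of these 8, only *Noc2l* was without overlap between the groups, at 218.4, 239.3 and 263.9 CPM in BirA and 277, 269.4 and 268.4 CPM in Nc1Bio. Of the *Noc2l* reads 88.1% were unique, and an opposite-strand gene, *Samd11*, overlaps it.

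The 5 genes grouped as nucleolar proteins all had a log2 fold change above 0, with *Npm1*, *Mybbp1a* and *Ddx21* free of overlap between the groups. *Ncl* (ENSMUSG00000026234, chromosome 1, 86344719 to 86359400), which encodes nucleolin, was at 1006.1, 1215.4 and 1280 CPM in BirA and 1347, 1296.5 and 1185.7 CPM in Nc1Bio, a log2 fold change of 0.13 (SE 0.12, adjusted p = 0.69 by edgeR). Nc1Bio replicate 3 lay below BirA replicates 2 and 3. *Npm1* (ENSMUSG00000057113, chromosome 11, 33152287 to 33163206), which encodes the histone and ribosome chaperone nucleophosmin, was at 1669.4, 1641.6 and 1727.4 CPM in BirA and 1785, 2017.7 and 2027.6 CPM in Nc1Bio. For *Npm1* the log2 fold change came to 0.21 (SE 0.09), with an unadjusted p of 0.0496 and an adjusted p of 0.416 by edgeR. Its groups did not overlap, and BirA replicate 1 was not its lowest library. Of the *Npm1* reads 83.0% were unique. *Mybbp1a* (ENSMUSG00000040463, chromosome 11, 72441355 to 72451768), a nucleolar Myb-binding protein, was at 284.9, 361.3 and 378.2 CPM in BirA and 414, 399.3 and 402.7 CPM in Nc1Bio (log2 fold change 0.25, SE 0.12, adjusted p = 0.456 by edgeR). The Nc1Bio libraries lay within a narrow band above all BirA libraries, and an opposite-strand gene, *Spns2*, overlaps *Mybbp1a*. *Nolc1*, a chaperone of snoRNPs, and *Ddx21*, a nucleolar helicase, had log2 fold changes of 0.25 and 0.155.

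**Figure D4:**
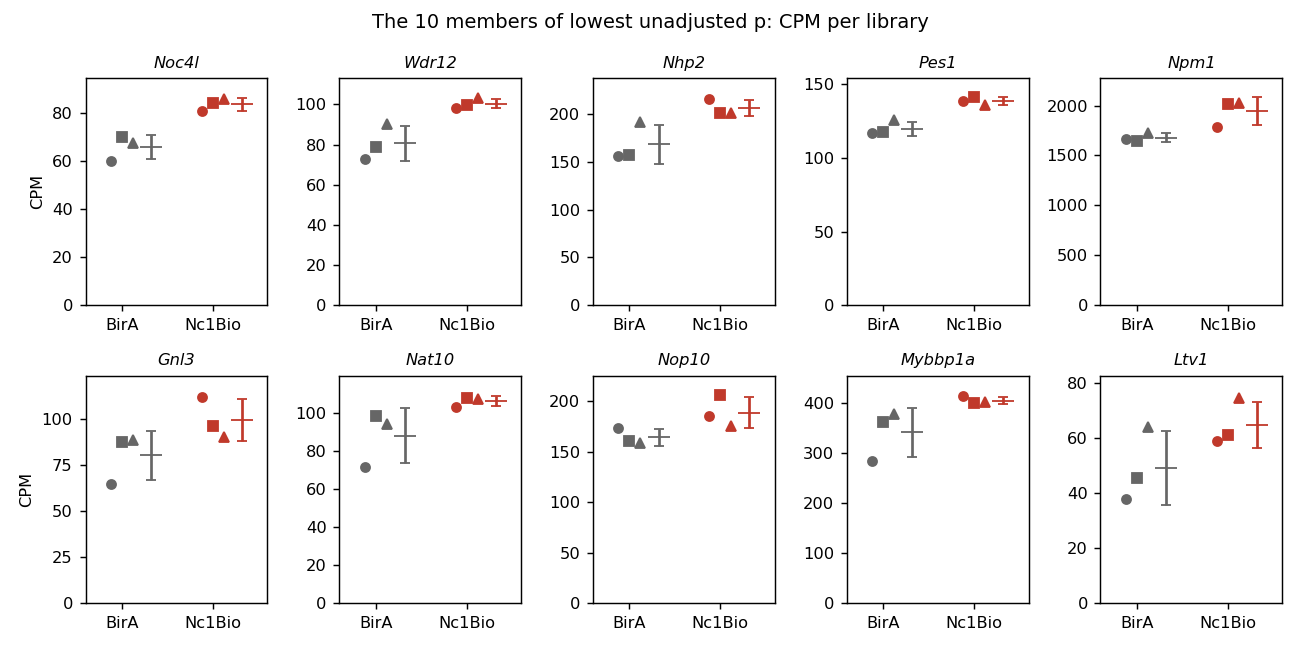
CPM (vertical axis, from 0) of the 10 factors of lowest unadjusted p in each BirA (grey) and Nc1Bio (red) library, with circles, squares and triangles for replicates 1, 2 and 3, and beside them the mean with its SD (n = 3). For 9 of the 10 every red mark lies above every grey mark, and *Ltv1* is the exception.

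The medians of the roles lay close together, and differences between roles were not tested. The median log2 fold change was 0.162 for the 3 RNA polymerase I genes, 0.201 for the 3 box C/D genes and 0.207 for the 4 H/ACA genes. It was 0.238 for the 13 small subunit genes, 0.195 for the 12 large subunit genes and 0.211 for the 5 nucleolar proteins. Single factors ran more widely, from -0.083 to 0.402 over the 40. In the annotation 7 of the factors overlap small nucleolar RNA genes on their own strand, and these 7 (*Nop56*, *Nop58*, *Dkc1*, *Wdr43*, *Tsr1*, *Gnl3* and *Ncl*) had a median of 0.201, beside 0.208 for the 33 others. The levels of the factors differed far more than their differences between groups. As unique exon CPM per kb of exon, the BirA means ran from 6.83 for *Wdr12*, 7.56 for *Rrp1b* and 7.79 for *Noc3l* to 149.7 for *Nhp2*, 151.1 for *Nop10* and 642 for *Npm1*. On that scale *Ncl* was at 116.7. *Fbl* was at 17.1 on unique and 64.7 on total exon reads, so its place in this order depends on the reads counted. The order also depends on the annotated exon length, 11955 bases for *Wdr12* and 3977 for *Noc3l*. In CPM of unique gene reads, without that division, the BirA means were 80.6 for *Wdr12* and 30.5 for *Noc3l*.

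Intron reads, which come mainly from unspliced RNA, were too few in these poly(A) libraries to follow most factors. They made up at most 1.82% of a factor's unique reads, and 12 of the 40 had enough to be tested, with 57 to 174 intron reads each over the 6 libraries. Of these 12, 7 had a log2 fold change above 0, against 46.2% of the 4414 genes tested on intron reads, and their median was 0.018. edgeR called 0 of the 12 (lowest adjusted p 0.998), with 0.0227% of all genes called higher and 0% lower. At an unadjusted p under 0.05, 0 of the 12 were higher, against 1.63% of the genes tested on intron reads, and 0 lower, against 2.54%. The SE of a single gene ran from 0.394 for *Npm1* to 1.006 for *Nop14*, each larger than any difference seen in the gene reads of these factors apart from *Ltv1*, so a difference of that size was not detectable in introns at this depth.

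A further 126 genes of the same pathway were listed by complex, and 125 were tested. Of these, 104 had a log2 fold change above 0, beside 49.6% of all tested genes, with a median of 0.158 and a range of -0.191 to 0.524. edgeR called 0 of the 125 in either direction, and 13 of them were higher (4.31% of all tested genes) and 0 lower (7.66%) at an unadjusted p under 0.05. With DESeq2, 2 were called higher, *Ddx49* (adjusted p = 0.0494) and *Rpf2* (adjusted p = 0.0321), beside 0.45% of all tested genes, and with limma-voom 0. *Rpf2*, which brings the 5S particle into the large subunit, was at 55.9, 67.2 and 68.8 CPM in BirA and 91.4, 84.2 and 87.2 CPM in Nc1Bio (adjusted p = 0.208 by edgeR). *Ddx49*, a helicase, was at 58.1, 61.6 and 66.9 CPM in BirA and 78.4, 83.1 and 85.8 CPM in Nc1Bio (adjusted p = 0.206 by edgeR). In both the groups were well separated, and over the alternatives their adjusted p reached 0.55 for *Rpf2* and 0.554 for *Ddx49*, in edgeR without Nc1Bio replicate 2.

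By class, 8 of 13 further RNA polymerase I genes had a log2 fold change above 0 (median 0.053), 9 of 10 snoRNP assembly genes (0.222), 33 of 41 small subunit genes (0.136), 41 of 48 large subunit genes (0.158) and 13 of 13 tested exosome genes (0.205). The pairs of lowest p were *Rrn3* (0.27), the initiation factor of RNA polymerase I, and *Znrd1* (0.19), *Ruvbl1* (0.22) and *Ruvbl2* (0.20), the ATPases that assemble snoRNPs, *Ddx49* (0.41) and the 18S methyltransferase *Bud23* (0.35), *Rpf2* (0.45) and *Ddx56* (0.39), and the exosome genes *Exosc1* (0.29) and *C1d* (0.205), each as a log2 fold change. In all of these but *C1d* every Nc1Bio library lay above every BirA library, which held for 22 of the 125, beside 8.45% of all tested genes.

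*Myc*, a known driver of this pathway, was at 184.4, 198.7 and 203.4 CPM in BirA and 323.7, 267 and 289.6 CPM in Nc1Bio. The log2 fold change of *Myc* was 0.59 (SE 0.10), and its adjusted p was 0.109 by edgeR, 4.08e-05 by DESeq2 and 0.118 by limma-voom, so its call depended on the test, and over the alternatives it reached 0.344 in edgeR without Nc1Bio replicate 2. The groups were well separated, and BirA replicate 1 lay close to its group, unlike in most of the factors.

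The windows around the start sites of the factors were read for the E-box CACGTG, which is its own reverse complement. RefSeq (GRCm38.p6) gave windows of 250 bases before to 50 bases after the start site for 35 of the 40, and *Bop1*, *Fbl*, *Npm1*, *Rrp12* and *Rrs1* were without one. The motif was in a window of 8 of the 35 (22.9%), against 8.09% of the 27025 genes with a window. The 27025 were not filtered on counts, while the 35 had all passed the filter on low counts, so the 2 shares are not of like sets. These 8 were *Nop2*, *Pes1*, *Utp4*, *Wdr43*, *Tsr1*, *Ltv1*, *Utp20* and *Mybbp1a*, and in 7 of them the motif began past the start site, with *Nop2* at position -60 as the exception. The 30 bases around it are shown for the 3 of them whose counts are given above among the 10 lowest p, with the motif in capitals, to show how close it lies to the start.
Pes1, chr11:3963965-3963994, plus strand: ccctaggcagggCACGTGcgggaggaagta
Ltv1, chr10:13193092-13193121, minus strand: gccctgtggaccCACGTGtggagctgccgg
Mybbp1a, chr11:72441347-72441376, plus strand: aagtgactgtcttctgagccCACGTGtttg
The first base of the motif was at position 3 in *Pes1*, 29 in *Ltv1* and 41 in *Mybbp1a*, counted from the RefSeq start site. The 8 factors with the motif had a median log2 fold change of 0.242, from -0.083 for *Tsr1* to 0.402 for *Ltv1*, and the 27 without it 0.179. Of the 3 other motifs counted, on both strands, the ETS-type CCGGAAG was in 31.4% of the 35 (9.93% of the 27025). The GC box GGGCGG was in 74.3% (38.2%) and the E-box variant CATGTG in 20% (15.9%). Factors with and without the motif had medians of 0.212 and 0.202 for CCGGAAG and the same for GGGCGG. For CATGTG the medians were 0.202 with and 0.206 without it. No difference between factors with and without a motif was tested. No motif in this set contains another, but neighbouring matches can share bases and a window can hold several. A match describes the letters of the window and no binding was measured here.

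**Figure D5:**
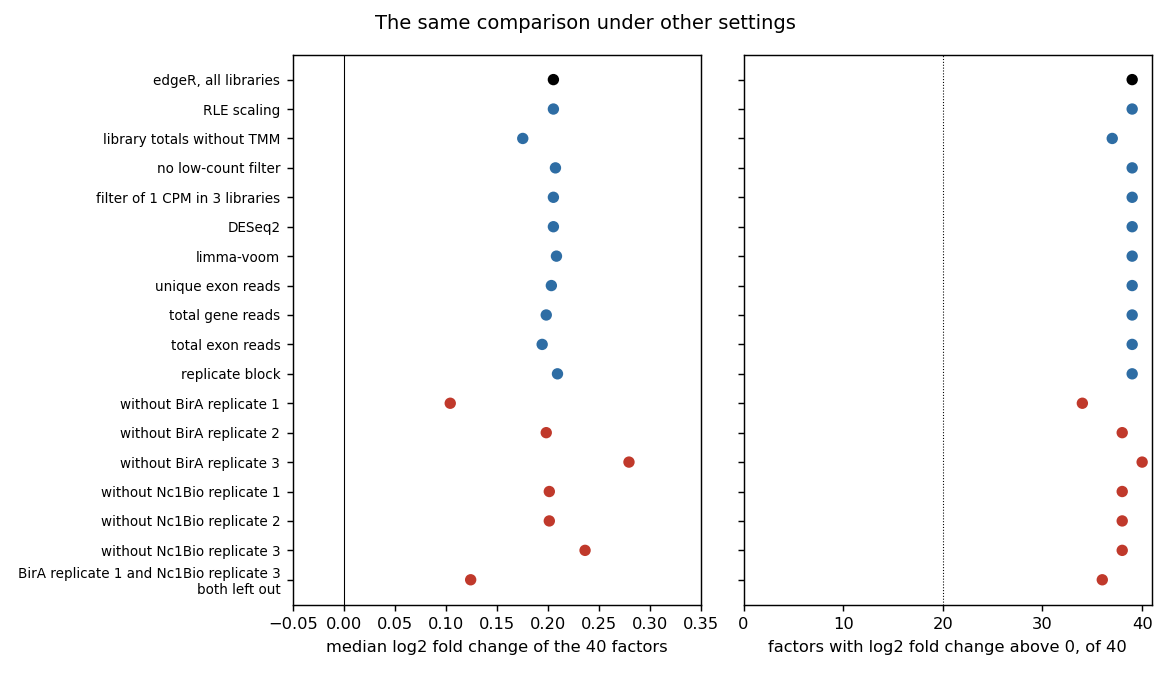
Median log2 fold change of the 40 factors (left, horizontal axis) and number of the 40 with a log2 fold change above 0 (right, horizontal axis, dotted line at 20) for the edgeR fit (black), other scalings, filters, tools and read columns (blue) and fits with libraries left out (red), 1 setting per line. The median stayed above 0 in each setting drawn, from 0.104 without BirA replicate 1 to 0.279 without BirA replicate 3.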

How the data were processed

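The authors depleted CD4- and CD8-positive thymocytes on magnetic beads and made poly(A) libraries from total RNA. Their methods name cutadapt, STAR, featureCounts and DESeq2, with GRCm38 as the build. The deposited counts are whole numbers of reads per gene, split by gene, exon and intron and by unique or total, in a layout featureCounts does not write; the program behind them and its use of strand are not given in the sources used here. RPKM and TPM columns were not used.

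Unique gene reads were analysed because the rule for the factors names them. They are 64.1% to 76.0% of total gene reads, so genes with near-identical copies lose reads. Genes passing filterByExpr were scaled by TMM and tested in edgeR 4.0.16 (quasi-likelihood test, R 4.3.3) with genotype as the single term, and Benjamini-Hochberg adjustment at 0.05 over all tested genes. SE is the log2 fold change over the square root of F. The 40 factors and the other lists were chosen with earlier results of these data known, so no list was tested. Of the marker lists, 2 genes are not reported here. Values in every library are given for the 10 factors of lowest p and the first of each role, and the 2 of lowest p in each class of other genes are named; *Tsr1* and *Noc2l* were added after their values were seen. No pair of libraries was near-identical (lowest chi-square over its degrees of freedom 24.3). Counts are reads, not molecules. The steps were tested on simulated data. Alternatives were DESeq2 1.42.0, limma-voom (limma 3.58.1), other scalings, filters and read columns, a replicate block and libraries left out.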

Additional observations from a re-analysis of the deposited data

How the results depend on the processing

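In 18 other settings 0 of the 40 factors were called; of 680 values 665 kept their sign and 15 reversed, for 8 factors. *Polr1c* came to -0.009 and *Rrp12* to -0.002 without TMM scaling. With BirA replicate 1 and Nc1Bio replicate 3 both left out, *Heatr1* was at -0.084, *Rrp12* at -0.039 and *Ddx18* at -0.001. With 1 library left out the ranges were -0.06 to 0.088 for *Polr1c*, -0.007 to 0.142 for *Utp15*, -0.022 to 0.159 for *Nop14*, -0.119 to 0.118 for *Rrp12*, -0.169 to 0.022 for *Tsr1*, -0.07 to 0.147 for *Noc3l* and -0.054 to 0.181 for *Ddx18*. The cause was not tested.

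Factors higher at an unadjusted p under 0.05 (5, beside 4.31% of all tested genes) numbered 1 without TMM scaling (1.82%). They numbered 3 on total gene reads (4.15%), 3 on total exon reads (4.39%) and 2 with both libraries out (2.78%). With 1 out they ran from 2 without Nc1Bio replicate 2 (2.73%) to 15 without BirA replicate 3 (6.69%). There were 3 each without BirA replicate 1 (2.57%), BirA replicate 2 (3.12%) or Nc1Bio replicate 1 (3.2%). The other pathway genes (13) numbered 6 without TMM and 4 with both out. With 1 out they ran from 5 without BirA replicate 1 to 31 without BirA replicate 3, all beside the same shares. DESeq2 called 2 of them, beside 0.45%. Factors without overlap (12, beside 8.45%) numbered 3 without TMM (4.88%). With 1 out they ran from 12 without BirA replicate 1 (11.8%) to 27 without BirA replicate 3 (17.5%). Over all genes, 1 higher and 0 lower became 11 and 145 without a low-count filter, 55 and 273 with DESeq2, and 13 and 157 at the study's threshold; calls lower were 18 without TMM and 2 with both libraries out. With 1 out, 0 to 1 genes were called in each direction. *Nfatc1* lost its call without BirA replicate 2 (adjusted p 0.141) and without Nc1Bio replicate 1, 2 or 3 (0.0689, 0.101 and 0.0618). The intron median ranged from -0.19 to 0.136.

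It is not stated whether the replicate numbers pair the samples. Deviations of same-numbered libraries correlated at 0.33, 0.12 and -0.08, and those of differently numbered libraries at -0.37 to 0.24. With 3 libraries per group these values cannot settle it. With a replicate block in edgeR 0 factors were called, their median was 0.209 and 39 lay above 0. At an unadjusted p under 0.05, 7 were higher. The share of all tested genes above 0 or at that p was not counted in this fit. Over all genes, 1 gene was called lower.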
